A study of Mus musculus with 6 samples.

Results

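Transcripts of 10 glutathione transferase genes were compared in heart ventricle between WD-fed mice given Tributyrin and WD-fed mice given vehicle. The 10 genes were 3 microsomal transferases (Mgst1, Mgst2 and Mgst3), 6 cytosolic transferases (Gsta3, Gsta4, Gstm1, Gstm2, Gstp1 and Gstt1) and the mitochondrial and peroxisomal transferase Gstk1. They were taken by gene symbol from the 54232 identifiers that were counted in every library. The set was chosen from measured values, because Mgst1 was picked for its difference between these same groups. The differences of the 10 genes between the groups are therefore given as a description, and the counts of these genes past a threshold, printed beside the share of all genes, support nothing.

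RNA was sequenced from 6 C57BL/6J WT mice, 3 per group. All 6 had been fed WD (western-diet) for 15 weeks before treatment. One group then received Tributyrin, a triglyceride of butyrate, at 5 g/kg body weight by needle feeding, 2 days on and 2 days off, for 3 weeks. The other group received vehicle on the same schedule, which the sample labels name PBS. Both groups were on the diet, so no comparison with a normal diet was possible here, and the sources used here give an age only for the cohort of the diet experiment, not for these mice. Mice of both sexes were used in the study. All 6 libraries held 1571 to 2559 counts of the Y-linked Ddx3y and 0 to 6 counts of Xist, the pattern of male mice.

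The libraries held 20369746 to 32734485 counts. Ventricular cardiomyocyte markers (Myh6, Myl2 and 6 others) were abundant, with a summed level of 52449 to 56596 CPM, as the tissue label says. Atrial markers (Nppa, Sln, Myl7, Myl4 and Mybphl) summed to 182 and 172 CPM in vehicle replicates 1 and 2, and to at most 64.4 CPM in the other 4 libraries. Markers of hepatocytes, a cell type rich in glutathione transferases, summed to at most 0.899 CPM, with 2 of 5 at 0 in every library. Summed markers of fibroblasts (727 to 909 CPM), endothelium (540 to 602), smooth muscle (681 to 838), macrophages (96.7 to 128) and erythroid cells (383 to 941) overlapped between the groups. CPM here are counts scaled to a common library total with TMM factors, which correct library size for differences in composition. Whole ventricle is a mixture, so fewer cells of a type and less RNA per cell cannot be told apart.

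Glutathione transferases join the tripeptide glutathione to reactive, mostly fat-soluble molecules, and the conjugates are then pumped out of the cell. The cytosolic enzymes work as dimers and are sorted into classes (alpha, mu, pi, theta and others) by sequence. The microsomal enzymes are a separate family of small membrane proteins, and several of them also reduce lipid hydroperoxides. In heart muscle, which is rich in mitochondria and in oxidizable fatty acids, these enzymes are best known for removing products of lipid peroxidation such as 4-hydroxynonenal.

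Sequence was read first, because the reads were 50 bases long and several transferases are near copies of each other. The annotated transcripts of Mgst1, Mgst3, Gsta4, Gstk1 and Gstt1 held no 50-base window that also occurred in a transcript of another gene. Of the windows of Gstp1, 33.7% (586 of 1737) also occurred in Gstp2, and 352 of these in the pseudogene Gstp-ps. The corresponding share was 18.9% for Gstm1, 5.66% for Gstm2, 0.475% for Mgst2 and 0.273% for Gsta3. The windows of Gstm1 were shared mainly with the pseudogene Gstm2-ps1 and with Gstm3, and 11 of them with Gstm2. The counts of Gstp1 and Gstm1 are uncertain to this degree, since no source used here gives the handling of reads that match several genes. Gstp2 held 45 to 130 counts per library, against 754 to 1248 for Gstp1, and Gstm2-ps1 held at most 8.

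The coding sequences of Gstp1 and Gstp2 differed at 12 of 633 bases. The 60 coding bases with the most differences are shown for both genes to make clear how few positions set their reads apart. They are bases 271 to 330 of each coding sequence, on the minus strand of GRCm38, at chr19:4036694-4036753 for Gstp1 and chr19:4040988-4041047 for Gstp2. Capitals mark the 5 bases that differ.
Gstp1: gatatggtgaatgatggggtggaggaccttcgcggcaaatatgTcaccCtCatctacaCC
Gstp2: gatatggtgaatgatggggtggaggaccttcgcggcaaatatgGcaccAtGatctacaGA

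Gstm1 and Gstm2, the pair of mu-class genes among the 10, differed at 92 of 657 coding bases (86.0% identity). Their most divergent 60 coding bases, 592 to 651 of each coding sequence, are shown for contrast with the pi-class pair. They lie on the minus strand of GRCm38, at chr3:108012695-108012754 for Gstm1 and chr3:107982055-107982114 for Gstm2, and capitals mark the 18 bases that differ.
Gstm1: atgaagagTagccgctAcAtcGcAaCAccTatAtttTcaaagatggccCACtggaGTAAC
Gstm2: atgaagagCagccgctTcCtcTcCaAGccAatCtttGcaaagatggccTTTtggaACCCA

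The alpha-class genes Gsta3 and Gsta4 were 65.5% identical over their coding sequences. The 3 microsomal genes were shorter, with 468 coding bases in Mgst1, 444 in Mgst2 and 462 in Mgst3, and their pairwise identity was 41.9% to 46.2%. Identity of each microsomal gene with each of the other 7 genes was 30.6% to 35.7%. Identity was counted over all aligned columns, gaps included, so a difference in length lowers it. Pairs from different classes among the other 7 genes, which are closer in length, had 38.98% (Gstm2 and Gstt1) to 50.15% (Gstm1 and Gstp1). The identity among the microsomal genes lay within that range.

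Promoters came from RefSeq (GRCm38.p6) and span 250 bases before to 50 bases after an annotated start. Of the 10 genes 9 had an entry, all except Gsta4, and Mgst1 and Gstm1 had 2 starts each. The core of the antioxidant response element, TGACNNNGC, is the element through which NRF2 acts, and it was searched on both strands. It was found in the upstream promoter of Mgst1 and in the promoter of Gsta3, and in 12.4% of all 32851 promoters in the table. The match in Mgst1 lies on the minus strand and begins 56 bases before the start, within chr6:138140461-138140489. The match in Gsta3 lies on the plus strand and begins 121 bases before the start, within chr1:21240454-21240482. Both stretches are printed on the plus strand because they are the only matches to this motif in the promoters of the 9 genes, and capitals mark the match.
Mgst1: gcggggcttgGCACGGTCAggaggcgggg
Gsta3: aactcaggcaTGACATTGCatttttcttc

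The xenobiotic response element core, TNGCGTG, was found in none of the promoters of the 9 genes and in 5.07% of all promoters. The GC box, GGGCGG, was found in the promoters of Mgst1, Mgst3, Gstk1 and Gstp1, with 4 matches in Mgst3, and in 35.7% of all promoters. The TATA box, TATAAA, was found in Mgst2 and Gstm1 and in 13.6% of all promoters. The CCAAT box, CCAAT, was found in Mgst2, Gsta3, Gstm1, Gstm2, Gstk1 and Gstt1 and in 37.4% of all promoters. These are matches of letters, and binding was not measured. The motifs were searched on both strands.

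The level of each gene was compared per length, as TPM (counts per base, scaled to a common total) over the merged exons of the gene, across the 6 libraries. The level was not used to choose the genes. Mgst3 was the most abundant of the 10, with a median of 460 TPM (418 to 508). Gstm1 followed with 263 TPM (242 to 296). Gstm2, Gsta4 and Gstk1 were close together, with medians of 108 TPM (106 to 118), 100.1 TPM (95.2 to 109.6) and 97.3 TPM (92.3 to 107.8). The ranges of these last 3 overlapped one another. Gstp1 had 57.0 TPM (50.8 to 60.8) and Mgst1 37.7 TPM (30.9 to 45.4). Mgst1 was thus in the lower part of the order, above Gstt1, Gsta3 and Mgst2. Gstt1 had 18.7 TPM (16.8 to 23.7), Gsta3 2.70 TPM (2.40 to 3.43) and Mgst2 0.034 TPM (0 to 0.106).

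Mgst3 stood above 99.4% of the genes with at least 1 count, and Mgst1 above 92.4% of them. Of the 9 neighbouring pairs in this order, 7 kept the same order in all 6 libraries. For each of the 7 the two-sided exact permutation test of the paired log2 ratio gave p = 0.03125, the smallest that 6 libraries allow (adjusted p = 0.0402 over the 9 pairs). The order that formed the pairs came from the same 6 libraries, so the p-values of the 9 pairs are a description. Gstm2 was above Gsta4 in 5 of 6 libraries, by 0.11 ± 0.11 on the log2 scale (SD, n = 6, exact permutation p = 0.0938, adjusted p = 0.105). Gsta4 was above Gstk1 in 4 of 6, by 0.05 ± 0.10 (SD, n = 6, exact permutation p = 0.219, adjusted p = 0.219). Neither of these neighbouring pairs differed beyond the spread between libraries, while Gstm2 was above Gstk1 in all 6 libraries, a pair that was not tested. With the mean length of the coding transcripts in place of merged exons, Gstk1 and Gsta4 changed places and the other 8 pairs kept their order. The levels themselves moved with that choice by over 1.5-fold for Mgst1 (64.7 TPM in place of 37.7), Gsta3 (7.56 in place of 2.70) and Mgst2 (0.161 in place of 0.034), and Mgst3 had 308 TPM in place of 460.

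**Figure D1:**
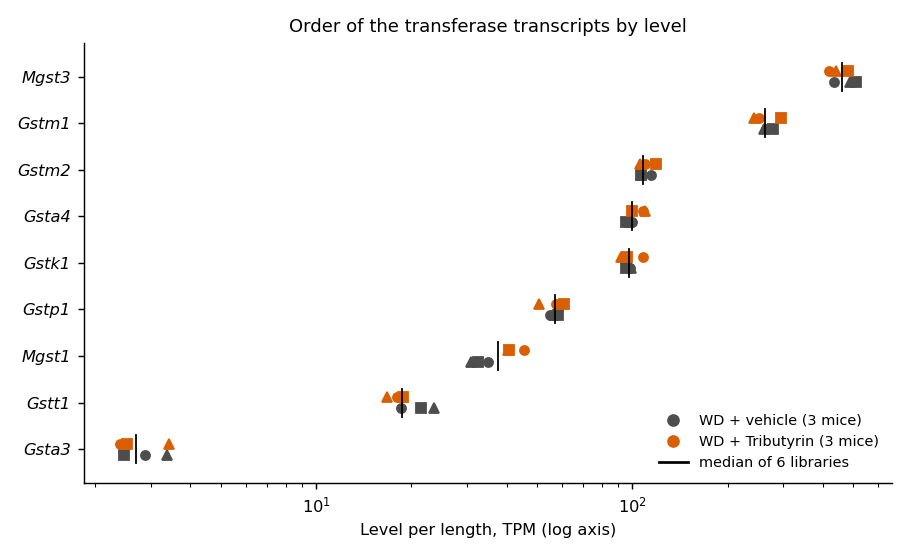
Level per length of 9 of the 10 transferase genes in TPM (log axis), with 1 point per library (grey, WD + vehicle, orange, WD + Tributyrin, 3 mice each; circle, square and triangle are replicates 1, 2 and 3) and a line at the median of the 6 libraries. Mgst3 lies at 418 to 508 TPM, Mgst1 at 30.9 to 45.4 and Gsta3 at 2.40 to 3.43, while Mgst2, at 0 to 0.106 TPM, is not drawn.

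Of the 14133 genes tested with edgeR's quasi-likelihood test, 0 (0%) passed an FDR of 10% after Benjamini-Hochberg adjustment, and 600 (4.25%) had an unadjusted p under 0.05. DESeq2 called 11 of 13179 genes (0.0835%) at an FDR of 10%, and edgeR without its filter on low counts called 167 of 25581 (0.653%). Of the 10 transferases 9 were tested, and Mgst2 was removed by the filter. With edgeR 0 of the 9 passed an FDR of 10%, and 2, Mgst1 and Gsta4, were higher with Tributyrin at an unadjusted p under 0.05, against 1.97% of all genes tested. None of the 9 was lower at that threshold, against 2.28% of all genes. Since Mgst1 was chosen on this contrast, nothing is read from these counts.

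Among the 9 tested genes 8 had a log2 fold change above 0, against 49.6% of all genes, and their median was 0.11, against -0.0013 over all genes. With library size alone as the scaling, 7 of the 9 were above 0, against 3891 of all 14133 genes. Their median was then 0.043 and that of all genes was -0.074. The level of all 10 genes together was 672, 656 and 638 CPM with vehicle and 693, 703 and 727 CPM with Tributyrin. These sums did not overlap between the groups (655 ± 16.9 and 708 ± 17.7, SD, n = 3). As plain CPM, scaled by library size alone, the sums were 672, 680 and 662 with vehicle and 679, 702 and 687 with Tributyrin, and they overlapped.

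Mgst1 (ENSMUSG00000008540, chr6:138140316-138156755, plus strand) encodes a membrane-bound transferase of the endoplasmic reticulum and outer mitochondrial membrane that also acts as a peroxidase on lipid hydroperoxides. Its level was 30.9, 26.7 and 25.3 CPM in vehicle replicates 1 to 3, from 781, 907 and 535 counts. It was 41.5, 35.1 and 39.8 CPM in Tributyrin replicates 1 to 3, from 1165, 1008 and 914 counts. Every Tributyrin library was above every vehicle library. The means were 27.6 ± 2.89 and 38.8 ± 3.27 CPM (SD, n = 3), and the fitted log2 fold change was 0.49 (SE 0.098), or 40.3% higher with Tributyrin. Mgst1 and Gstp1 were the 2 of the 9 tested genes that were higher without overlap, against 4.34% of all genes, and 0 of the 9 were lower without overlap, against 4.61%.

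Atrial transcripts differed along with Mgst1 in part of the libraries. Of 5 atrial markers 4 (Sln, Myl7, Myl4 and Mybphl) were lower with Tributyrin at an unadjusted p under 0.05, against 2.28% of all genes. The median log2 fold change of the 5 was -1.94, a larger size than that of Mgst1, and all 5 overlapped between the groups. Vehicle replicate 3, which had the lowest level of Mgst1, had an atrial sum of 53.8 CPM, close to the Tributyrin libraries. Most of that sum was Nppa, at 39.8 CPM the highest level of this marker in any library. The other 4 markers were at their lowest there (Sln 0.237, Myl7 4.21, Myl4 9.37 and Mybphl 0.189 CPM). The atrial score, the mean log2 CPM of the 5 markers less its mean over the libraries, was 1.74, 1.45 and -1.48 with vehicle. It was -0.90, -0.013 and -0.80 with Tributyrin, so score and group were partly confounded. The log2 fold change of Mgst1 was 0.54 (SE 0.121) when this score entered the fit. Without vehicle replicates 1 and 2 it was 0.61 (SE 0.154), a value that rests on 1 vehicle library, assumed to vary as the Tributyrin libraries do. The share of mitochondrial transcripts was 26.5%, 23.6% and 24.1% with vehicle and 27.7%, 25.9% and 28.8% with Tributyrin, so the groups overlapped in it, and with mitochondrial genes left out before scaling the log2 fold change of Mgst1 was 0.49 (SE 0.099). Among the ventricular markers, Tnnt2, Tnni3 and Pln were higher with Tributyrin at an unadjusted p under 0.05, with log2 fold changes of 0.23, 0.21 and 0.24 (3 of 8 markers, against 1.97% of all genes). Actc1 was lower with -0.21 (1 of 8, against 2.28%). Of 5 smooth muscle and pericyte markers 1, Myh11, was higher at that threshold, against 1.97% of all genes. It had 37.2 ± 1.69 CPM with vehicle and 56.1 ± 16.2 with Tributyrin (SD, n = 3), without overlap. Its log2 fold change of 0.59 (SE 0.168) was larger than that of Mgst1. Of 6 fibroblast markers 1 was lower at that threshold, Col1a1 (-0.46, SE 0.173), against 2.28% of all genes. The collagens Col3a1 (-0.39, SE 0.182) and Col1a2 (-0.30, SE 0.141) were also below 0. Dcn (0.0051), Pdgfra (-0.0074) and Tcf21 (0.067) were near 0. None of these markers passed an FDR of 10% with edgeR, and their part in the difference of Mgst1 was not tested.

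Ratios between transferases within a library do not depend on how libraries are scaled. Mgst1 was chosen on this contrast, so its ratios to genes that differ less restate that difference and support nothing more. Per 100 reads of Mgst3, Mgst1 had 14.7, 11.7 and 11.6 reads with vehicle and 19.9, 15.6 and 16.9 with Tributyrin. Relative to Gstm1 the values were 18.0, 15.9 and 16.1 reads with vehicle and 24.7, 18.9 and 22.9 with Tributyrin. Both ratios were higher in every Tributyrin library than in every vehicle library. The ratio to Gstk1 was 46.0 ± 2.97 with vehicle and 58.7 ± 1.32 with Tributyrin, and the ratio to Gsta4 was 53.4 ± 2.61 and 63.5 ± 4.09 (SD, n = 3), again without overlap. Mgst1 took 4.21% ± 0.336 of the reads of the 10 genes with vehicle and 5.49% ± 0.495 with Tributyrin (SD, n = 3). Gstt1 was the other gene whose share did not overlap between groups, with 2.07% ± 0.228 and 1.76% ± 0.0439 (SD, n = 3).

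**Figure D2:**
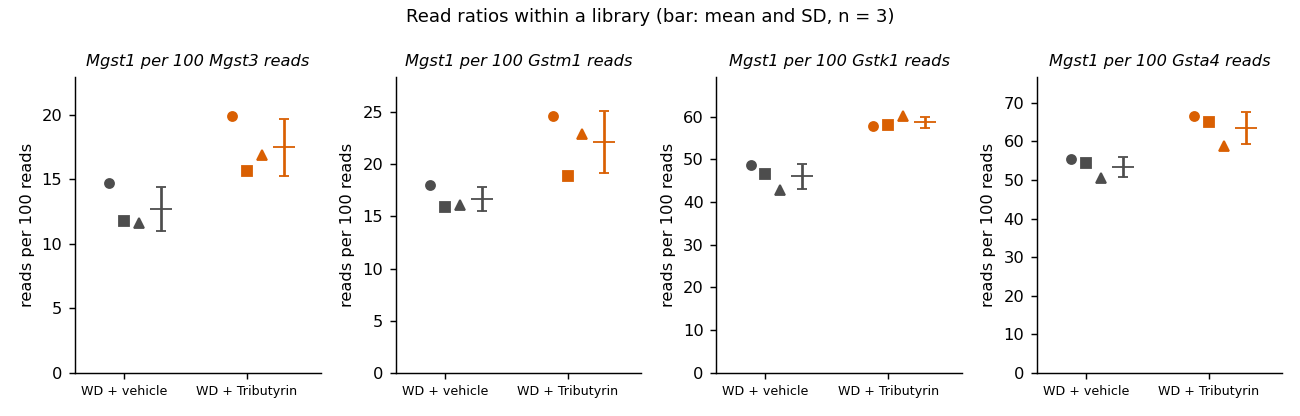
Reads of Mgst1 per 100 reads of Mgst3, Gstm1, Gstk1 and Gsta4 in the same library, with 1 point per mouse (circle, square and triangle are replicates 1, 2 and 3) and bars for the mean and SD (n = 3 per group), on linear axes from 0. In all 4 ratios the 3 Tributyrin libraries lie above the 3 vehicle libraries, with means of 17.5 against 12.7 for Mgst3 and 58.7 against 46.0 for Gstk1.

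Mgst3 (ENSMUSG00000026688, chr1:167371966-167393841, minus strand), a microsomal transferase with peroxidase activity, was 210, 228 and 217 CPM with vehicle and 208, 225 and 235 CPM with Tributyrin. The groups overlapped, and the log2 fold change was 0.03 (SE 0.073). Mgst2 (ENSMUSG00000074604, chr3:51660360-51682677, plus strand), which can make leukotriene C4, was close to undetected. It had 1, 1 and 2 counts with vehicle and 5, 2 and 0 counts with Tributyrin. The count of 0 among 24333168 allows a level of up to 0.123 CPM by library size alone. A difference between the groups was not detectable at this depth.

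Among the alpha-class genes, Gsta4 (ENSMUSG00000032348, chr9:78182774-78209349, plus strand) encodes the transferase best known for conjugating 4-hydroxynonenal. Its level was 55.7, 49.2 and 50.2 CPM with vehicle and 62.2, 54.1 and 67.6 CPM with Tributyrin. Tributyrin replicate 2 lay below vehicle replicate 1, so the groups overlapped, and the log2 fold change was 0.25 (SE 0.094). Gsta3 (ENSMUSG00000025934, chr1:21240589-21265661, plus strand), another alpha-class transferase, was 5.49, 4.36 and 5.96 CPM with vehicle and 4.73, 4.67 and 7.27 CPM with Tributyrin. It overlapped widely, with a log2 fold change of 0.08 (SE 0.200), and its sign turned without Tributyrin replicate 3 (-0.15) and without vehicle replicate 2 (-0.050).

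The mu-class genes conjugate a broad range of electrophiles. Gstm1 (ENSMUSG00000058135, chr3:108012255-108017973, minus strand) was 172, 168 and 157 CPM with vehicle and 168, 186 and 174 CPM with Tributyrin. Gstm2 (ENSMUSG00000040562, chr3:107981702-107986453, minus strand) was 84.4, 73.1 and 72.6 CPM with vehicle and 83.3, 84.9 and 86.4 CPM with Tributyrin. Both overlapped between groups, with log2 fold changes of 0.09 (SE 0.072) and 0.15 (SE 0.078). Within libraries Gstm2 had 43.6 to 49.2 reads per 100 reads of Gstm1 with vehicle and 45.6 to 49.7 with Tributyrin, so the balance of the pair also overlapped.

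Gstk1 (ENSMUSG00000029864, chr6:42245935-42250447, plus strand), the transferase of mitochondria and peroxisomes, was 63.5, 57.3 and 59.2 CPM with vehicle and 71.8, 60.5 and 66.1 CPM with Tributyrin. The groups overlapped, and the log2 fold change was 0.14 (SE 0.083). Gstp1 (ENSMUSG00000060803, chr19:4035407-4037985, minus strand), the pi-class transferase, was 37.3, 36.8 and 35.7 CPM with vehicle and 40.3, 40.2 and 38.3 CPM with Tributyrin. The Gstp1 groups did not overlap, but the difference was small, with a log2 fold change of 0.11 (SE 0.070) and 0.043 with library size alone. Gstt1 (ENSMUSG00000001663, chr10:75783813-75798584, minus strand), the theta-class transferase, was the 1 tested gene of the set below 0. It was 12.4, 13.4 and 14.7 CPM with vehicle and 12.5, 12.3 and 12.5 CPM with Tributyrin, with a log2 fold change of -0.12 (SE 0.10). Vehicle replicate 1 lay within the Tributyrin range.

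**Figure D3:**
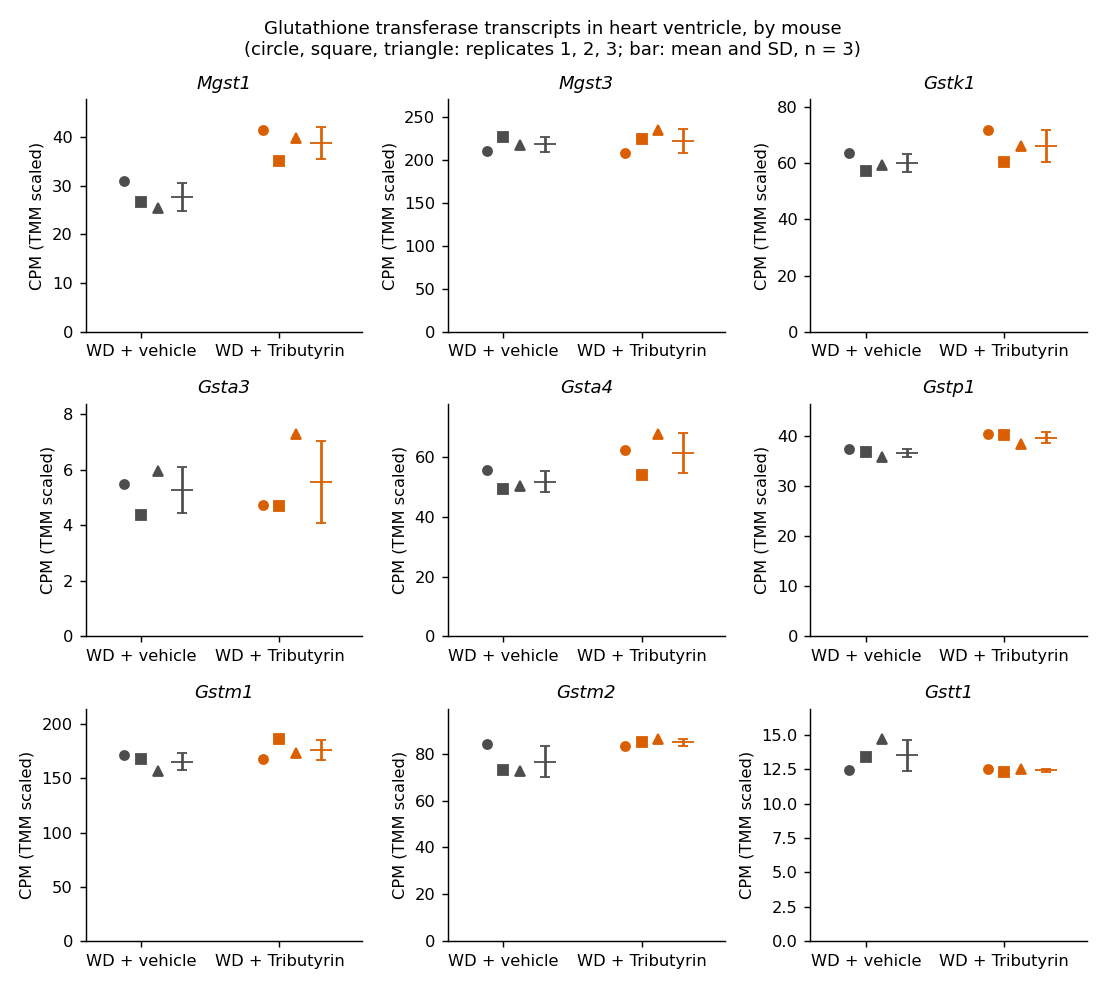
CPM after TMM scaling of the 9 tested transferase genes in each mouse (circle, square and triangle are replicates 1, 2 and 3), with bars for the mean and SD (n = 3 per group), on linear axes from 0. The groups are apart for Mgst1 (25.3 to 30.9 against 35.1 to 41.5 CPM) and narrowly for Gstp1 (35.7 to 37.3 against 38.3 to 40.3), and they overlap for the other 7 genes.

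The spread between mice of a group differed among the genes. The pooled SD of log2 CPM was 0.136 for Mgst1, larger than that of 72.5% of the genes whose mean count was within 1.5-fold of it. It was 0.133 for Gsta4 and 0.301 for Gsta3, the gene with the widest spread of the 9, which had a mean of 141 counts per library. Gstp1 had the narrowest, at 0.037, and only 3.54% of genes of like count had a smaller SD. The remaining 5 genes had 0.072 to 0.103. Counting error alone at the lowest count would give Mgst1 a relative SD of 4.32% and Gsta3 one of 8.91%.

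Among the 36 pairs of the 9 tested genes, 19 had a positive Pearson r of log2 CPM after the group means were subtracted, and the median r was 0.17 over 6 libraries. The closest to Mgst1 were Gstk1 with r = 0.86, Gsta4 with 0.81 and Gstm2 with 0.69. Mgst3 (-0.47) and Gstt1 (-0.64) varied in the opposite direction to Mgst1. These values rest on 6 points that share library depth and scaling, and they are a description.

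Over all 6 libraries, with the group difference included, the 5 genes whose log2 CPM was most like that of Mgst1 were Hrc, E130310I04Rik, Acadl, Tnfaip6 and Nsfl1c. Hrc encodes the histidine-rich calcium-binding protein of the sarcoplasmic reticulum (r = 0.996), and Acadl the long-chain acyl-CoA dehydrogenase of mitochondria (r = 0.994). Hrc was 979, 947 and 947 CPM with vehicle and 1043, 1011 and 1032 CPM with Tributyrin, a much smaller difference than that of Mgst1 (log2 fold change 0.10, SE 0.063). Acadl was 1233, 1161 and 1144 CPM with vehicle and 1348, 1290 and 1319 CPM with Tributyrin (log2 fold change 0.16, SE 0.067). Both genes and Mgst1 ranked the 6 libraries identically.

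E130310I04Rik, an antisense RNA (r = 0.995), and Tnfaip6, a secreted hyaluronan-binding protein (r = 0.985), had means of 60.7 and 17.3 counts per library. Nsfl1c encodes a cofactor of the p97 ATPase (r = 0.984). The lowest r belonged to Ptpn13, a protein tyrosine phosphatase (-0.997), Ddr1, a collagen receptor kinase (-0.993), and Odf2l (-0.985). An r of at least 0.9 was reached by 168 of 14132 genes, so these 5 are the top of a long list, and with 6 libraries r is a description. With library size alone the r of Hrc was 0.59 and that of Nsfl1c -0.087.

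The rest of the family was measured alongside, as 16 other transferase genes, of which 13 were tested. Gstm3, Gstp3 and Gstt4 had at most 2 counts in a library. Of the 13, 10 had a log2 fold change above 0 and 3 below, against 49.6% of all genes above 0, and their median was 0.033. With edgeR 0 of the 13 passed an FDR of 10%, and 1, Gstm5, had an unadjusted p under 0.05, against 4.25% of all genes. With library size alone 6 of the 13 were above 0, against 3891 of all 14133 genes.

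Gstm5, another mu-class gene, was 25.0, 25.9 and 22.5 CPM with vehicle and 29.4, 26.9 and 29.5 CPM with Tributyrin, without overlap (log2 fold change 0.22, SE 0.087). Gstt3, another theta-class gene, was 1.90, 2.27 and 1.94 CPM with vehicle and 2.63, 2.41 and 2.96 CPM with Tributyrin. It also did not overlap, with a log2 fold change of 0.38 (SE 0.192), opposite in sign to Gstt1, and neither gene passed the threshold. Gstm5 and Gstt3 were the 2 of the 13 tested genes higher without overlap, against 4.34% of all genes. Gsto1, the omega-class enzyme that reduces dehydroascorbate, was the most abundant of these genes in CPM, with 127 ± 8.30 CPM with vehicle (SD, n = 3) and a log2 fold change of 0.03 (SE 0.093). Gstm7 (0.14, SE 0.090), Gstz1 (0.11, SE 0.085), Gstp2 (0.02, SE 0.285), Gstt2 (0.02, SE 0.158) and Gstm4 (0.01, SE 0.139) overlapped between groups. Hpgds, the prostaglandin D synthase of immune cells, had 13 to 48 counts per library and a log2 fold change of -0.35 (SE 0.466).

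Another 3 members of the membrane family to which Mgst1 belongs act in eicosanoid synthesis and were low. Alox5ap, the 5-lipoxygenase activating protein, was 2.65 ± 0.264 CPM with vehicle and 2.18 ± 0.445 with Tributyrin. Ptges, a prostaglandin E synthase, was 1.26 ± 0.527 and 1.24 ± 0.340 CPM, and Ltc4s, the leukotriene C4 synthase, 0.524 ± 0.222 and 0.573 ± 0.122 CPM (SD, n = 3). All 3 overlapped between groups, and 0 passed an FDR of 10% with edgeR.

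**Figure D4:**
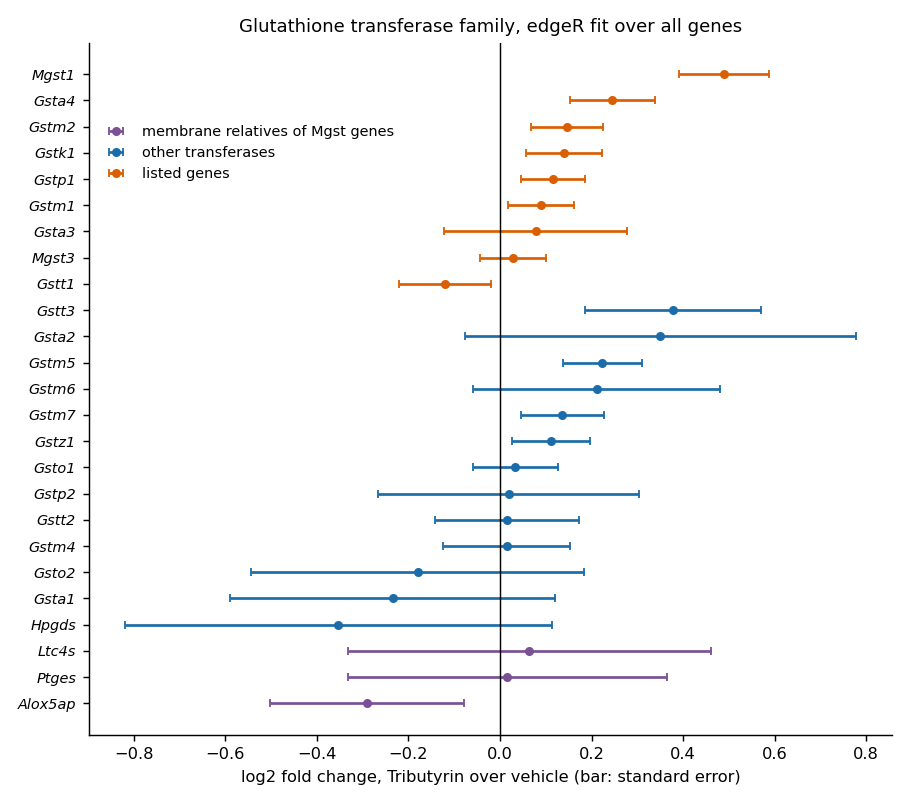
Log2 fold change of Tributyrin over vehicle from the edgeR fit over all genes, with its standard error, for the 9 tested listed genes (orange), 13 other transferases (blue) and 3 membrane relatives (purple). Mgst1 lies at 0.49 and Gsta4 at 0.25, and apart from these and Gstm5 every gene drawn lies within 2 standard errors of 0.

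Genes that supply, recycle and spend glutathione were then counted from fixed lists. Of the genes for glutathione synthesis and turnover, 13 of 16 were tested, 8 had a log2 fold change above 0 and 5 below (median 0.025), where 49.6% of all genes were above 0. With library size alone, which moves the median of all genes to -0.074, 4 of the 13 were above 0 (median -0.047). Of all 14133 genes, 3891 were above 0 with that scaling. Gclm, the regulatory subunit of the rate-limiting ligase, was 18.8, 17.1 and 19.02 CPM with vehicle and 20.7, 21.1 and 19.9 CPM with Tributyrin, without overlap (0.17, SE 0.087). It was the 1 of these 13 genes higher without overlap, against 4.34% of all genes. Gclc, the catalytic subunit, had -0.18 (SE 0.127), and Gss, the glutathione synthetase, -0.03 (SE 0.120). Slc7a11, the cystine carrier, was too low to be tested.

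All 12 glutathione redox enzymes were tested, with 8 above 0 and 4 below (median 0.015), against 49.6% of all genes above 0. With library size alone 3 were above 0 (median -0.057), against 3891 of all 14133 genes. Gpx4, the peroxidase of membrane lipid hydroperoxides, was 337 ± 14.7 CPM with vehicle and 348 ± 46.8 with Tributyrin, and Gpx3, the secreted peroxidase, 233 ± 14.8 and 213 ± 26.4 CPM (SD, n = 3). Gpx1 (0.12, SE 0.106), Gsr, the glutathione reductase (0.08, SE 0.086), and Glrx, a glutaredoxin (0.02, SE 0.139), also overlapped between groups. Hagh, a glyoxalase named after its value was seen, was 70.6, 75.9 and 68.2 CPM with vehicle and 49.9, 42.8 and 78.9 CPM with Tributyrin. Tributyrin replicate 3 lay above all vehicle libraries and the other 2 below them (-0.33, SE 0.182).

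The 13 genes of other routes that remove 4-hydroxynonenal had 5 above 0 and 8 below (median -0.010), against 49.6% of all genes above 0. With library size alone 2 were above 0 (median -0.081), against 3891 of all 14133 genes. Aldh2, the mitochondrial aldehyde dehydrogenase, was 313 ± 36.8 CPM with vehicle (SD, n = 3), with a log2 fold change of 0.06 (SE 0.092). Aldh3a2 (-0.05, SE 0.075), the aldose reductase Akr1b3 (0.07, SE 0.076) and Ptgr1 (-0.44, SE 0.248) overlapped as well. The 2 genes of this list whose groups did not overlap, named after their values were seen, were Cbr3, lower with Tributyrin (-0.42, SE 0.257), and Aldh9a1, higher (0.11, SE 0.076). Of all genes, 4.61% were lower and 4.34% higher without overlap.

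Of the 7 transporters for conjugate export 6 were tested, and all 6 had a log2 fold change below 0 (median -0.18). Of all 14133 genes, 7121 were below 0. Abcc4 was 16.5, 18.2 and 19.4 CPM with vehicle and 14.8, 16.8 and 15.0 CPM with Tributyrin (-0.22, SE 0.102), and Abcc1, a pump of glutathione conjugates, was 38.0 ± 1.53 and 33.3 ± 4.85 CPM (-0.19, SE 0.103). None of the 6 had an unadjusted p under 0.05 with edgeR, against 4.25% of all genes. All 6 overlapped between groups, while 4.34% of all genes were higher and 4.61% lower without overlap.

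The 16 genes of NRF2 (Nfe2l2) and its targets had 6 above 0 and 10 below (median -0.0049), against 49.6% of all genes above 0. With library size alone 5 were above 0 (median -0.078), against 3891 of all 14133 genes. Nfe2l2 itself (0.19, SE 0.091), Keap1, its inhibitor (0.08, SE 0.070), and the targets Nqo1 (-0.10, SE 0.078), Hmox1 (-0.16, SE 0.235) and Txnrd1 (-0.06, SE 0.075) overlapped between groups. Of the 16, 1 had an unadjusted p under 0.05, against 4.25% of all genes. It was the peroxiredoxin Prdx1 (0.17, SE 0.071). Prdx1 and the ferritin heavy chain Fth1 (0.15, SE 0.070) were the 2 of 16 genes higher without overlap, against 4.34% of all genes. Both were named after their values were seen. Of 5 tested genes of the aryl hydrocarbon receptor axis 2 were above 0 and 3 below, against 49.6% of all genes above 0. Ahr had -0.13 (SE 0.137) and Cyp1b1 0.39 (SE 0.241). The repressor of the receptor, Ahrr (-0.41, SE 0.175), was named after its value was seen. It was the 1 of these 5 genes with an unadjusted p under 0.05, against 4.25% of all genes. In none of these lists did a gene pass an FDR of 10% with edgeR and Benjamini-Hochberg adjustment over all genes.

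**Figure D5:**
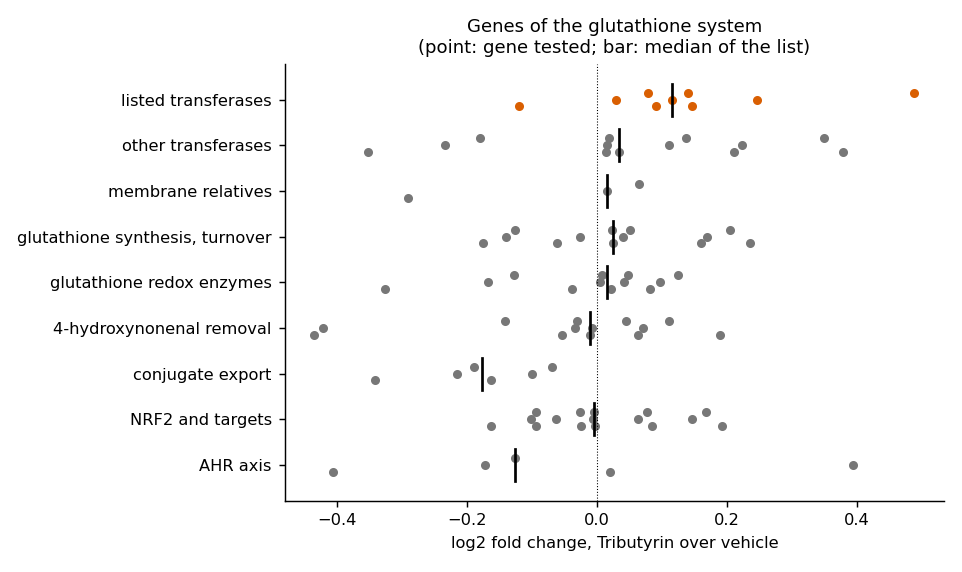
Log2 fold change of Tributyrin over vehicle for each tested gene of 9 lists of the glutathione system, with 1 point per gene (orange for the listed transferases) and a bar at the median of each list. Medians lie between -0.18 for conjugate export and 0.11 for the listed transferases, and the point furthest to the right is Mgst1 at 0.49.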

How the data were processed

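Heart ventricle RNA of 3 mice per group was measured by stranded mRNA sequencing with single-end reads of 50 bases. The authors deposited whole-number read counts per Ensembl gene, without normalization. Before that they trimmed adapters, removed poor reads and rRNA reads, aligned the rest by STAR and counted reads per gene by htseq-count. The submitters' processing notes name cutadapt 1.13, HTSeq 0.6.1p1, DESeq2 1.14.1 and mm10. For the annotation release, the strand setting of the counting and the handling of reads matching several genes, the entry is: not given in the sources used here.

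Symbols and positions came from GENCODE M21 (GRCm38), to which 54165 of 54232 identifiers matched, and 0 lines named no gene. Groups were compared on all 6 libraries with edgeR 4.0.16 (R 4.3.3, limma 3.58.1), using its quasi-likelihood test with TMM scaling, filterByExpr (10 counts at least, 15 in total) and p-values adjusted by Benjamini-Hochberg over all genes tested, at an FDR of 10%. DESeq2 1.42.0 was an alternative. Other steps used pandas 2.3.3, numpy 2.4.6 and matplotlib 3.10.9 under Python 3.11.15. The log2 CPM had a prior count of 2, and TPM ratios a pseudocount of 0.01. Libraries held 20369746 to 32734485 counts, and deeper libraries have less counting error. Limits for a count of 0 use 3 counts and cover counting error only. No 2 libraries agreed within sampling noise. The labels give no batch, and p-values measure the spread between these mice.

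The 10 members, the lists and the named genes were chosen with earlier results of these data known. The genes named are the 10 members, the 5 with the highest and 3 with the lowest r with Mgst1, and named members of the lists. Gsta13 matched no identifier. Alternatives were other scalings (size factors of DESeq2, library size alone), mitochondrial genes left out, no filter, a mean CPM of at least 5, DESeq2, limma-voom, a replicate block and fits without each mouse. An atrial covariate and leaving out vehicle replicates 1 and 2 were added after seeing the data. The edgeR step was also run on counts simulated from the means and spreads of these data. The simulation held no differences in cell make-up, and nothing is read from it here.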

Additional observations from a re-analysis of the deposited data

How the results depend on the processing

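At an FDR of 10%, where edgeR called 0 genes, the count was 167 without a filter, 11 with DESeq2, 2 with the replicate block and 0 to 3 when each mouse was left out in turn. The count in the glutathione lists was 1 (Hagh) without a filter and 0 under the other 15 alternatives. The log2 fold change of Mgst1 was 0.42 to 0.61 over all 16 alternatives and 0.43 to 0.58 when each mouse was left out, and it was 0.49 without a filter and 0.49 with DESeq2, the alternatives in which Mgst1 was among the genes called. Since Mgst1 was chosen on this contrast, nothing is read from that. Mgst3 changed sign with library size alone (-0.046) and without Tributyrin replicate 3 (-0.011, range with each mouse left out -0.011 to 0.081). Gsta3 ranged from -0.15 to 0.19 when each mouse was left out, and was -0.050 without vehicle replicate 2, -0.15 without Tributyrin replicate 3, -0.040 with the atrial covariate and -0.11 without vehicle replicates 1 and 2. The other 6 tested genes kept their sign in all alternatives. Of the 5 genes most like Mgst1, 0 remained among the top 5 after the group means were subtracted, though their r with Mgst1 was then still 0.933 to 0.977, and 2 with library size alone. The cause of these changes was not tested.

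The labels number the mice and name no pairs. The correlations of same-numbered mice, after the group means were subtracted, were 0.21, 0.037 and 0.015. Mice of different numbers were not compared in this way, so these values cannot decide whether the numbers pair the mice. With the replicate block the log2 fold change of Mgst1 was 0.49 (SE 0.086, against 0.098 without it). Genes with few counts, Mgst2 above all, are limited by depth.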
